A study of Mus musculus with 8 samples.

Results

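MHC class II molecules display peptides from the endosome to CD4 T cells, and 8 genes of that route were followed through every library of the series. They were the chain genes H2-Aa, H2-Ab1 and H2-Eb1, the invariant chain Cd74, the loading factor genes H2-DMa and H2-DMb1, the regulator Ciita and the costimulator Cd86. The members were chosen by name, so all 8 are described, out of 32249 genes that the 8 count tables listed together. H2-Aa, H2-Ab1, H2-Eb1, Cd74, H2-DMa, H2-DMb1 and Cd86 were among the 10422 genes with enough counts to be tested, and Ciita was not.

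The libraries came from hind limb marrow of C57Bl/6J mice, 10 weeks of age and male by their labels, grown for 3 days in the growth factor M-CSF. For the next 24 h the protein CYR61 was added at 4 µg/mL to 4 cultures and left out of the 4 controls. CYR61 is a secreted matrix-associated protein, encoded by Ccn1, that binds integrins. Cells were lifted with accutase and processed on HIVE, a microwell platform for single-cell RNA. All groups share the strain, the marrow source and M-CSF, and the comparison asks what the added protein did to RNA levels. The labels do not tell whether a replicate is an animal of its own, so p-values measure the spread between these libraries.

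In the class II pathway an alpha and a beta chain pair in the endoplasmic reticulum around the invariant chain, which blocks the groove and steers the complex to endosomes. Proteases cut the invariant chain down to a fragment, and H2-DM exchanges that fragment for peptide. Transcription of the whole set depends on CIITA, a coactivator without DNA contact of its own that docks on RFX, CREB and NF-Y at the promoters. Macrophages grown in M-CSF are known for low class II that interferon-gamma raises, and the costimulator CD86 gives T cells the accompanying signal through CD28. C57BL/6 mice do not make the I-E alpha chain, so H2-Eb1 protein lacks its partner in this strain. H2-Ea itself was looked for and was not in the count tables.

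On mm10 and the GENCODE vM21 annotation the chain and loading genes lie together on chromosome 17, all protein coding. H2-DMa spans chr17:34119541-34139101, H2-DMb1 chr17:34153072-34160230, H2-Ab1 chr17:34257689-34269419, H2-Aa chr17:34282744-34287823 and H2-Eb1 chr17:34305867-34316674. H2-Aa is on the minus strand and the other 4 are on the plus strand. Ciita (chr16:10480059-10528418) and Cd86 (chr16:36603869-36666081) lie on chromosome 16, and Cd74 lies on neither chromosome.

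Both H2-Aa and H2-Eb1 carry the X and Y boxes through which the RFX and NF-Y factors are known to bind class II promoters, and their 120 bases before the start site are shown for that reason, from RefSeq on GRCm38.p6. Capitals mark the X box match first and the Y box match second. The stretch of H2-Aa is chr17:34287824-34287943 read on the minus strand, and that of H2-Eb1 is chr17:34305747-34305866 on the plus strand.
H2-Aa: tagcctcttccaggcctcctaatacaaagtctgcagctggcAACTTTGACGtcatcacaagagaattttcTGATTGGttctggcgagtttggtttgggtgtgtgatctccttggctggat
H2-Eb1: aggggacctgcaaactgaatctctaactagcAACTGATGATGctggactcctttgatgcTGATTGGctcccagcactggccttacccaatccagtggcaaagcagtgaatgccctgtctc
The X box was searched as AACT, then 1 or 2 bases of any kind, then TGANG, and the Y box as TGATTGG, on both strands, in the 250 bases before each start site. These spellings were set after reading the class II promoters, so a match in them is a description. The X box began 79 bases before the start of H2-Aa, 89 before H2-Eb1 and 92 before H2-DMb1, and 19, 17 and 18 bases lay between the boxes. Of 32851 promoter windows, 7.23% held the Y box, 1.36% held the X box and 33 (0.100%) held both. The windows of H2-DMa, at 2 start sites, held neither spelling, and H2-DMb2, a close relative of H2-DMb1, held the Y box alone. H2-Ab1, Cd74, Ciita and Cd86 were not in the promoter table.

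Some features of the libraries bear on every value below. Cells were barcodes with 300 or more genes and no more than 20% mitochondrial counts. Of 12848 such barcodes, 6443 (50.1%) were listed in another library with the same date stamp, so each barcode was kept only where it had most molecules. The remaining 9196 cells are called home-library cells, and they held 842528 to 13933610 unique molecule counts (UMIs) per library, with medians of 789 to 1595 per cell. Replicates 1 and 2 of each group carry the earlier date stamp and replicates 3 and 4 the later one. In control replicate 2 most kept cells had their home elsewhere, with 76.1% of its kept UMIs. Against the male labels, Xist RNA was at 1152 to 1249 CPM (UMIs scaled so that every library has an equal total) in control replicates 2 and 3 and CYR61 replicates 1 and 2, and Y-linked RNA at 323 to 399 CPM in the others. The macrophage markers were present throughout, with Csf1r at 319 to 529 CPM and Lyz2 at 5880 to 12256 CPM.

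The chain genes were higher in CYR61 libraries than in controls, by 3.34-fold for H2-Aa and 2.56-fold for H2-Ab1 as ratios of mean CPM. H2-Aa encodes the alpha chain of the I-A molecule, and it was at 30.8, 11.9, 4.75 and 4.99 CPM in control replicates 1 to 4 and at 69.0, 34.7, 37.4 and 34.0 CPM in CYR61 replicates 1 to 4. Every CYR61 library was above every control, with CYR61 replicate 1 the highest and control replicate 1 close below the lowest CYR61 library. The means were 13.1 ± 12.3 and 43.8 ± 16.9 CPM (SD, n = 4 each; exact two-sided permutation p = 0.0286, the smallest that 70 assignments allow). The log2 fold change was 1.63 (SE 0.49), with an adjusted p of 0.301 in edgeR's quasi-likelihood test over all genes. These sums rest on 129 control and 1200 CYR61 UMIs of H2-Aa. In a sum, fewer positive cells and less RNA per cell cannot be told apart, and the counts per cell further below address that.

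H2-Ab1, the beta chain of I-A, was at 40.7, 31.4, 9.50 and 17.9 CPM in control replicates 1 to 4. In CYR61 replicates 1 to 4 it was at 97.7, 51.2, 59.2 and 47.3 CPM. Again the groups did not overlap, and control replicate 3 was the lowest library. The mean was 24.9 ± 13.9 CPM in controls and 63.8 ± 23.1 CPM with CYR61 (SD, n = 4 each; exact two-sided permutation p = 0.0286). In edgeR the log2 fold change of H2-Ab1 was 1.34 (SE 0.37, adjusted p = 0.214). H2-Aa and H2-Ab1 were the only members whose CPM did not overlap between the groups, 2 of 8, where 2.87% of all tested genes were higher with CYR61 without overlap.

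H2-Eb1, the beta chain of I-E, was the least counted of the chains, with 37 UMIs in all controls and 477 with CYR61. Its values were 9.31, 2.55, 2.37 and 0 CPM in control replicates 1 to 4, where the 0 allows up to 2.99 CPM, and 30.2, 14.4, 14.8 and 5.62 CPM in CYR61 replicates 1 to 4. CYR61 replicate 4 lay below control replicate 1, so the groups overlapped. The means of 3.56 ± 4.01 and 16.2 ± 10.2 CPM differed by an exact two-sided permutation p of 0.0571 (SD, n = 4 each). The edgeR estimate was a log2 fold change of 1.98 (SE 0.73, adjusted p = 0.549). Floors and intervals cover counting error only.

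Cd74 RNA encodes the invariant chain, the chaperone of newly made class II, and stood at 136, 69.6, 24.9 and 59.8 CPM in control replicates 1 to 4. With CYR61 it was at 233, 127, 173 and 132 CPM in replicates 1 to 4. CYR61 replicate 1 was again the highest, while control replicate 1 exceeded CYR61 replicates 2 and 4. The means of 72.7 ± 46.6 and 166 ± 49.0 CPM differed by an exact two-sided permutation p of 0.0857 (SD, n = 4 each), and edgeR gave a log2 fold change of 1.19 (SE 0.37, adjusted p = 0.352).

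The loading factor genes were at similar levels in both groups. H2-DMa was at 34.9, 13.6, 35.6 and 21.9 CPM in control replicates 1 to 4 and at 28.1, 21.4, 35.7 and 41.7 CPM in CYR61 replicates 1 to 4. The groups overlapped, at means of 26.5 ± 10.7 and 31.7 ± 8.86 CPM (SD, n = 4 each; log2 fold change 0.26, SE 0.35, adjusted p = 1.0 in edgeR). H2-DMb1, its partner chain, was at 39.0, 30.6, 15.4 and 23.9 CPM in control replicates 1 to 4 and at 30.1, 21.2, 35.7 and 37.2 CPM in CYR61 replicates 1 to 4. Here control replicate 1 was the highest library of all (log2 fold change 0.18, SE 0.31, adjusted p = 1.0 in edgeR). An SE of that size leaves a small difference undetectable. H2-DMb2, at mean levels of 1.22 and 0.836 CPM, is so like H2-DMb1 that the split of reads between them is uncertain.

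Ciita, the master regulator, was near the detection limit. It gave 13, 0, 1 and 1 UMIs in control replicates 1 to 4 and 49, 42, 2 and 14 UMIs in CYR61 replicates 1 to 4, or 3.78, 0, 1.19 and 0.997 CPM against 6.19, 3.01, 1.74 and 3.74 CPM. The 0 of control replicate 2 allows up to 2.55 CPM, and control replicate 1 lay above 3 of the 4 CYR61 libraries. It was too low for the test across genes. A permutation of its CPM over the libraries gave an exact two-sided p of 0.171 (n = 4 each).

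Cd86, the ligand of CD28 and CTLA-4 on T cells, was at 5.82, 4.25, 7.12 and 4.99 CPM in control replicates 1 to 4 and at 16.6, 10.9, 6.96 and 20.6 CPM in CYR61 replicates 1 to 4. CYR61 replicate 3 lay within the control range, on 8 UMIs, and the other CYR61 libraries lay above it. Means were 5.54 ± 1.23 and 13.8 ± 6.02 CPM (SD, n = 4 each; exact two-sided permutation p = 0.0571), and the edgeR log2 fold change was 1.36 (SE 0.46, adjusted p = 0.441). Unlike the chain genes and Cd74, its highest library was CYR61 replicate 4.

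**Figure D1:**
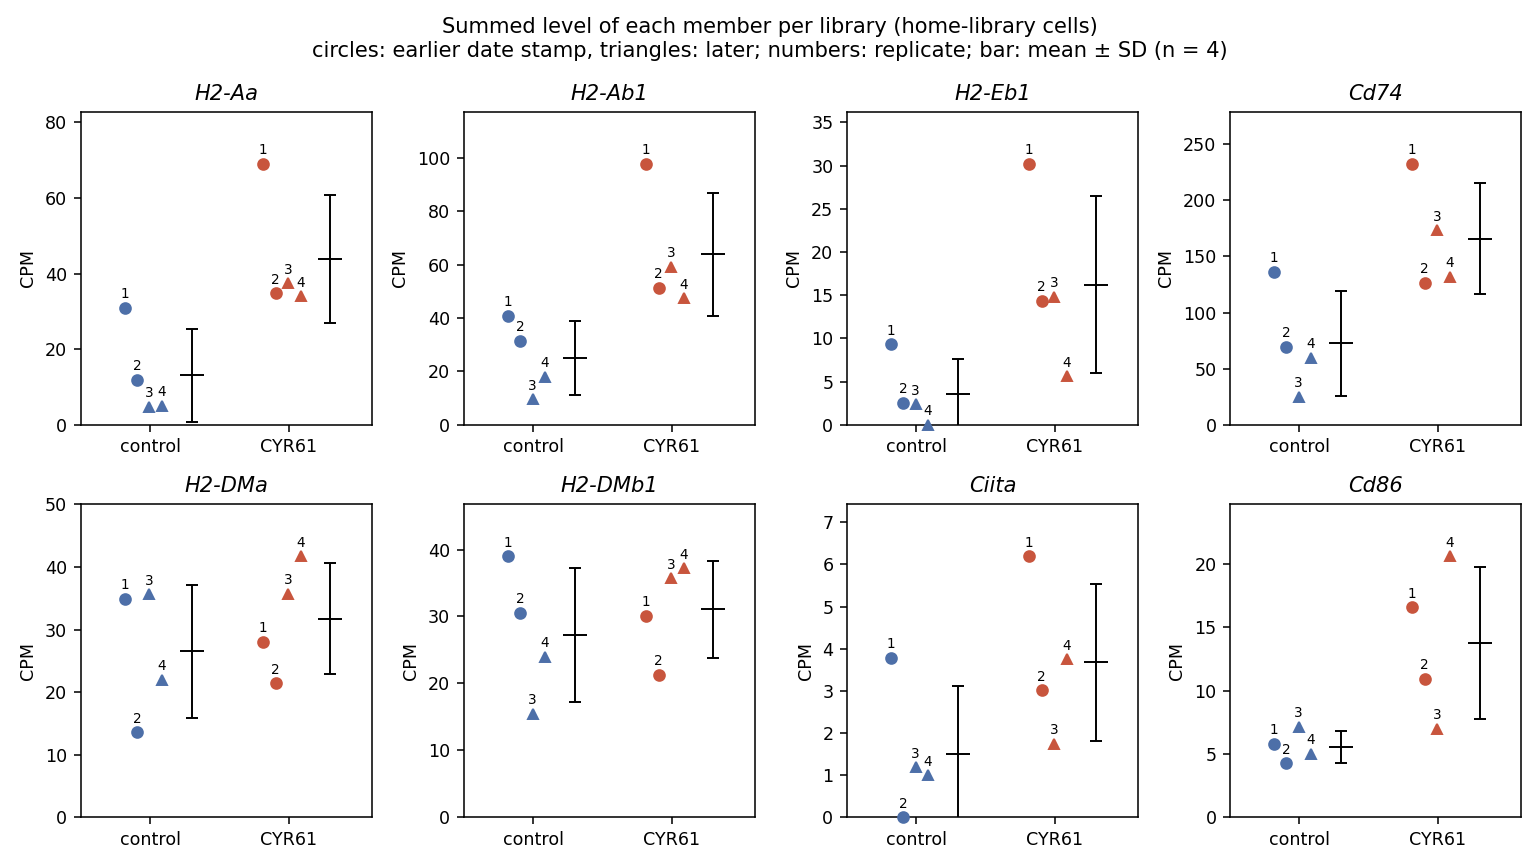
Level of each member in CPM (vertical axis) in the 4 control and 4 CYR61 libraries; points are libraries numbered by replicate, and bars give the mean ± SD. The CYR61 libraries of H2-Aa and H2-Ab1 lie above all controls, while H2-DMa and H2-DMb1 overlap.

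By the adjusted p over all genes, 0 of 7 tested members were called in edgeR's quasi-likelihood test, where 1.16% of all tested genes were called. At an unadjusted p under 0.05, 5 of 7 were higher with CYR61 (H2-Aa, H2-Ab1, H2-Eb1, Cd74 and Cd86), against 3.45% of all tested genes. DESeq2 called 1 member, H2-Ab1 (adjusted p = 0.0391), where it called 1.76% of genes. With the date stamp as a term edgeR too called H2-Ab1 (adjusted p = 0.0465) and 1.27% of genes, and with the replicate number as a block it called H2-Aa (adjusted p = 0.0316) and 1.07% of genes. Whether replicate numbers pair the libraries is not known. The median log2 fold change was 1.34 over the 7 members and -0.02 over all tested genes. Of the single libraries left out, control replicate 1 alone brought a call: without it H2-Aa had a log2 fold change of 2.59 (adjusted p = 0.0201), where 0.923% of genes were called. With no filter on low counts edgeR called 4 members (H2-Aa, H2-Ab1, H2-Eb1 and Cd74), where 0.781% of genes were called.

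Restricting the libraries changed the size of the difference more than its direction. With the libraries that held Y-linked RNA alone, 2 in each group, the edgeR log2 fold change was 0.86 (SE 0.49) for H2-Aa, 0.80 (SE 0.37) for H2-Ab1 and 0.61 (SE 0.28) for Cd74. With the libraries that held Xist RNA alone it was 2.66 (SE 0.54), 1.88 (SE 0.50) and 1.96 (SE 0.43), and whether these sets differ was not tested. Cd86 was alike in both, at 1.41 (SE 0.75) and 1.41 (SE 0.55). No member was called in either set, where 1.85% and 3.06% of genes were called. Among the CYR61 libraries, replicates 1 and 2 held Xist RNA and carry the earlier date stamp. CYR61 replicates 3 and 4 held Y-linked RNA and carry the later one, so this split and the date cannot be told apart in that group.

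Within the earlier date stamp the estimates were 1.25 (SE 0.50) for H2-Aa, 1.12 (SE 0.36) for H2-Ab1 and 0.86 (SE 0.41) for Cd74. Within the later date stamp they were 2.82 (SE 0.65), 1.90 (SE 0.52) and 1.79 (SE 0.42), with no member called in either, where 0.693% and 0.920% of genes were called. H2-DMb1 turned from 0.85 in the later date stamp to -0.36 in the earlier one. In the test of that interaction edgeR called 0 members and 0 of all genes (0%), and 1 member, H2-DMb1, had an unadjusted p under 0.05 (0.0446, adjusted p = 0.488). DESeq2 called 0 members as well, and 0.393% of genes.

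Where shared barcodes were kept in every library, the differences were smaller: the log2 fold change was 0.88 (SE 0.40) for H2-Aa, 0.78 (SE 0.32) for H2-Ab1 and 0.67 (SE 0.30) for Cd74. H2-Aa still did not overlap between the groups there, but control replicate 2 reached 49.3 CPM of H2-Ab1, above the 47.2 CPM of CYR61 replicate 4. The share of genes higher without overlap was 1.87% in those cells. In the stricter set, with at least 90% of a barcode's UMIs in its home library, H2-Ab1 did not overlap and H2-Aa did, at 17.4 CPM in CYR61 replicate 3 against 30.8 CPM in control replicate 1 (background 2.22%).

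Counting cells in place of molecules gave the same direction between the groups for H2-Aa and H2-Ab1. After each cell was thinned to 500 UMIs, at least 1 UMI of H2-Aa was left in 1.20, 0.332, 0.707 and 0% of cells across control replicates 1 to 4 and in 2.90, 1.61, 1.88 and 1.63% across CYR61 replicates 1 to 4. The 0, from 369 cells, allows a share of up to 0.813%. All CYR61 libraries were above all controls (0.561 ± 0.517 against 2.01 ± 0.608%, SD, n = 4 each; exact two-sided permutation p = 0.0286). For H2-Ab1 the shares were 1.61, 1.33, 0.353 and 1.08% of cells of control replicates 1 to 4, against 4.43, 2.06, 2.82 and 2.25% of CYR61 replicates 1 to 4. They did not overlap either (1.09 ± 0.537 against 2.89 ± 1.08%, SD, n = 4 each; exact two-sided permutation p = 0.0286). These 2 of 8 members compare with 3.18% of all tested genes. Few cells with a UMI stand behind the control shares. In control replicates 1 to 4 they numbered 12, 1, 2 and 0 for H2-Aa and 16, 4, 1 and 4 for H2-Ab1. Leaving out 1 library cannot make separated groups overlap. The exact p was 0.0571 for H2-Aa without CYR61 replicate 1 or 3, and for H2-Ab1 without control replicate 2, 3 or 4. In these runs another assignment of the remaining libraries gave a difference at least as large in size. The exact p stayed at 0.0286 without any other single library. Before thinning, the mean shares were 2.32 and 6.50% for H2-Aa and 4.84 and 9.80% for H2-Ab1. A cell with a UMI is called positive in what follows, which does not say that it made the RNA itself.

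Cd74 had the highest mean share of the members in both groups, at 5.82, 2.33, 0.707 and 3.25% of thinned cells in control replicates 1 to 4, against 10.2, 5.09, 5.87 and 5.52% of those in CYR61 replicates 1 to 4. Control replicate 1 lay above CYR61 replicates 2 and 4, so the groups overlapped (3.03 ± 2.14 against 6.66 ± 2.37%, SD, n = 4 each; exact two-sided permutation p = 0.0857). Taken as the share expected over all possible draws, Cd74 did not overlap (2.49 ± 1.75 against 6.75 ± 2.20%, exact p = 0.0286), where 3.11% of genes were higher without overlap. Without control replicate 1 the thinned share of Cd74 passed as well (exact p = 0.0286). The other members overlapped at 500 UMIs, with mean shares of 0.176 and 0.548% for H2-Eb1, 0.769 and 1.36% for H2-DMa and 1.16 and 1.28% for H2-DMb1. Ciita was left in 0.0251 and 0.120% of cells and Cd86 in 0.252 and 0.597%. Their exact two-sided permutation p ranged from 0.143 to 0.943 (n = 4 each). At 1000 UMIs, Ciita was left in 0.208, 0, 0 and 0% of cells of control replicates 1 to 4 and in 0.358, 0.362, 0.515 and 0.249% of those of CYR61 replicates 1 to 4. These shares did not overlap (exact two-sided permutation p = 0.0286, n = 4 each; 3.44% of tested genes were higher without overlap), but they rest on 1 control cell and on 4, 9, 1 and 1 CYR61 cells, and each 0 allows 1.36 to 2.01%. H2-Ab1 did not overlap at 1000 UMIs either, while H2-Aa did (exact p = 0.0857).

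**Figure D2:**
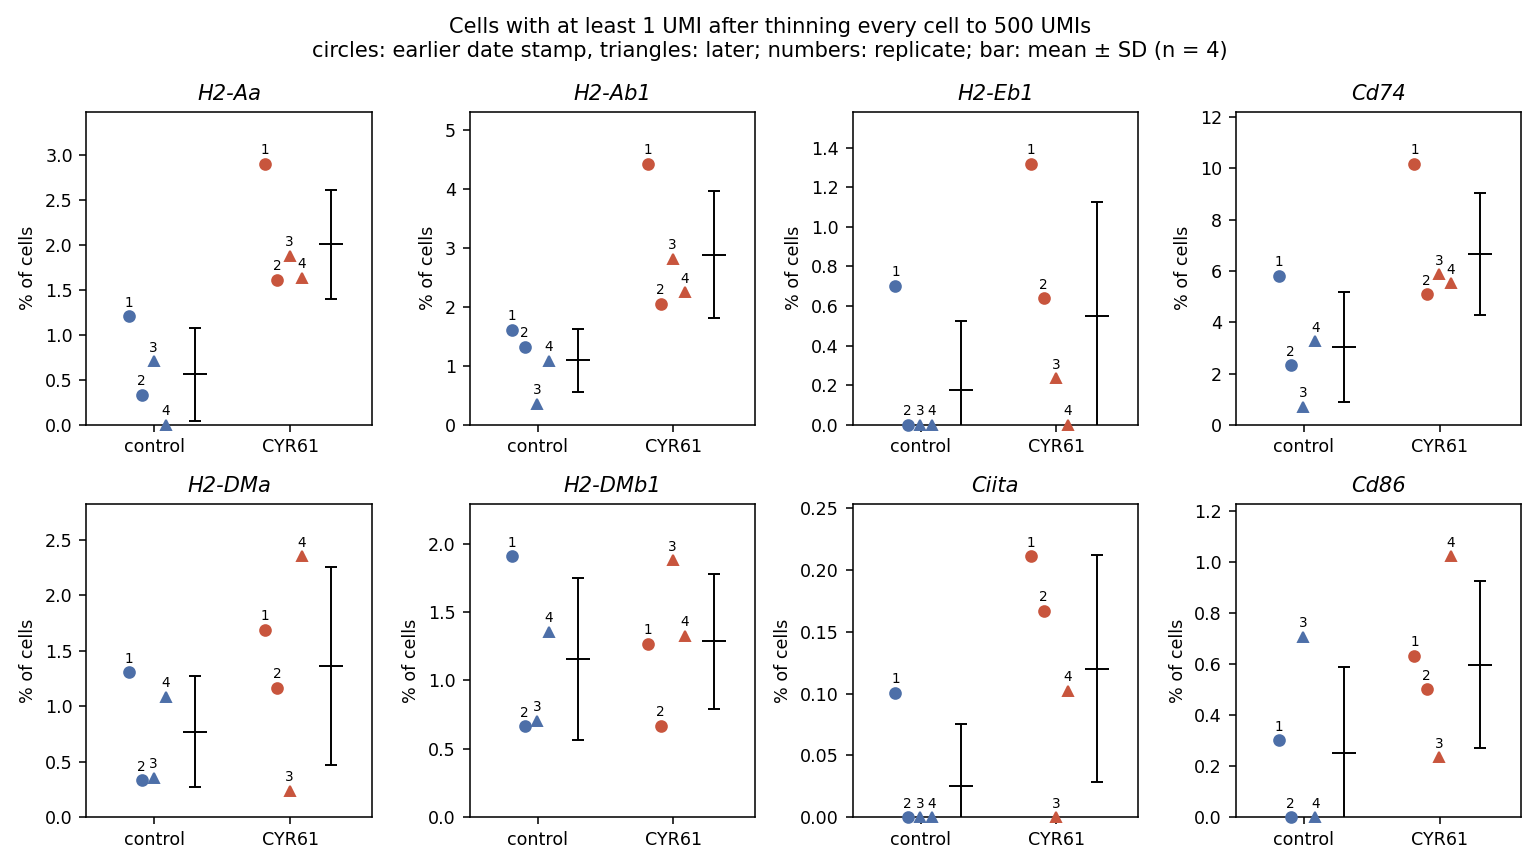
Share of cells with at least 1 UMI of each member after thinning to 500 UMIs (vertical axis, % of cells) in each control and CYR61 library; points are libraries numbered by replicate and bars give the mean ± SD. Shares of H2-Aa and H2-Ab1 do not overlap between the groups, and those of the other members do.

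At 500 UMIs a positive cell held between 1 and 1.5 UMIs of Cd74 on average in each library, which leaves little room to see a change in amount. At 1000 UMIs a positive cell held 1.31, 1, 1 and 1.27 UMIs of Cd74 in control replicates 1 to 4, against 1.58, 1.39, 1.62 and 1.51 UMIs for CYR61 replicates 1 to 4. These amounts did not overlap (1.15 ± 0.169 against 1.53 ± 0.101, SD, n = 4 each; exact two-sided permutation p = 0.0286), where 1.23% of the 7305 genes with a positive cell in every library were higher without overlap. The control amounts rest on 45, 7, 4 and 11 positive cells. Deeper cells were also taken, a choice made after seeing the data: the 2463 cells with at least 3000 UMIs, from 50 in control replicate 3 to 1169 in CYR61 replicate 2, with values expected at 3000 UMIs. Cd74 was then in 13.2 ± 7.11% of control and 23.0 ± 5.37% of CYR61 cells (SD, n = 4 each; exact two-sided permutation p = 0.0857). A positive cell held 1.56 ± 0.402 UMIs of Cd74 in controls and 2.39 ± 0.486 with CYR61 (SD, n = 4 each; exact two-sided permutation p = 0.0571). By library the amount of Cd74 was 2.12, 1.46, 1.17 and 1.48 UMIs in control replicates 1 to 4, against 3.07, 2.17, 1.94 and 2.38 UMIs in CYR61 replicates 1 to 4. Only CYR61 replicate 3 lay below a control, replicate 1.

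For H2-Aa at that depth, the share was 2.49 ± 3.00% in controls and 8.63 ± 2.35% with CYR61, and the amount 1.13 ± 0.185 and 1.61 ± 0.435 UMIs per positive cell (SD, n = 4 each; exact two-sided permutation p = 0.0571 for both). H2-Ab1 had shares of 5.46 ± 3.71 and 11.7 ± 2.57% (exact p = 0.0571) and amounts of 1.14 ± 0.156 and 1.70 ± 0.409 UMIs (exact p = 0.0857, n = 4 each). Share and amount were both higher with CYR61 for these members, and neither passed at this depth. The control amounts rest on few cells. In control replicates 1 to 4, 34, 4, 1 and 3 deep cells had a UMI of H2-Aa before any thinning. For H2-Ab1 these were 52, 13, 5 and 8 cells. H2-DMa held 1.09 UMIs per positive cell in both groups (exact two-sided permutation p = 1, n = 4 each).

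Of the shares at this depth, that of Cd86 did not overlap. At least 1 UMI was expected in 1.54, 0.822, 1.67 and 2.51% of deep cells of control replicates 1 to 4 and in 4.14, 2.89, 3.13 and 4.97% of those of CYR61 replicates 1 to 4. The groups did not overlap (1.64 ± 0.691 against 3.78 ± 0.960%, SD, n = 4 each; exact two-sided permutation p = 0.0286). It was the single member of 8 without overlap there, beside 3.24% of all tested genes. Few cells stand behind the low shares: 11, 2, 3 and 4 deep cells of control replicates 1 to 4 had a UMI of Cd86 before any thinning, and 75, 90, 5 and 36 of CYR61 replicates 1 to 4. A count of 0 would allow 3.66 to 6.0% in control replicates 2 to 4 and 4.48% in CYR61 replicate 3, above what was seen there. The groups overlapped at 500 UMIs (exact p = 0.200), at 1000 UMIs (exact p = 0.171) and without thinning (exact p = 0.114). Its positive cells held 1.04 ± 0.0639 and 1.14 ± 0.0671 UMIs (SD, n = 4 each; exact two-sided permutation p = 0.0857).

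**Figure D3:**
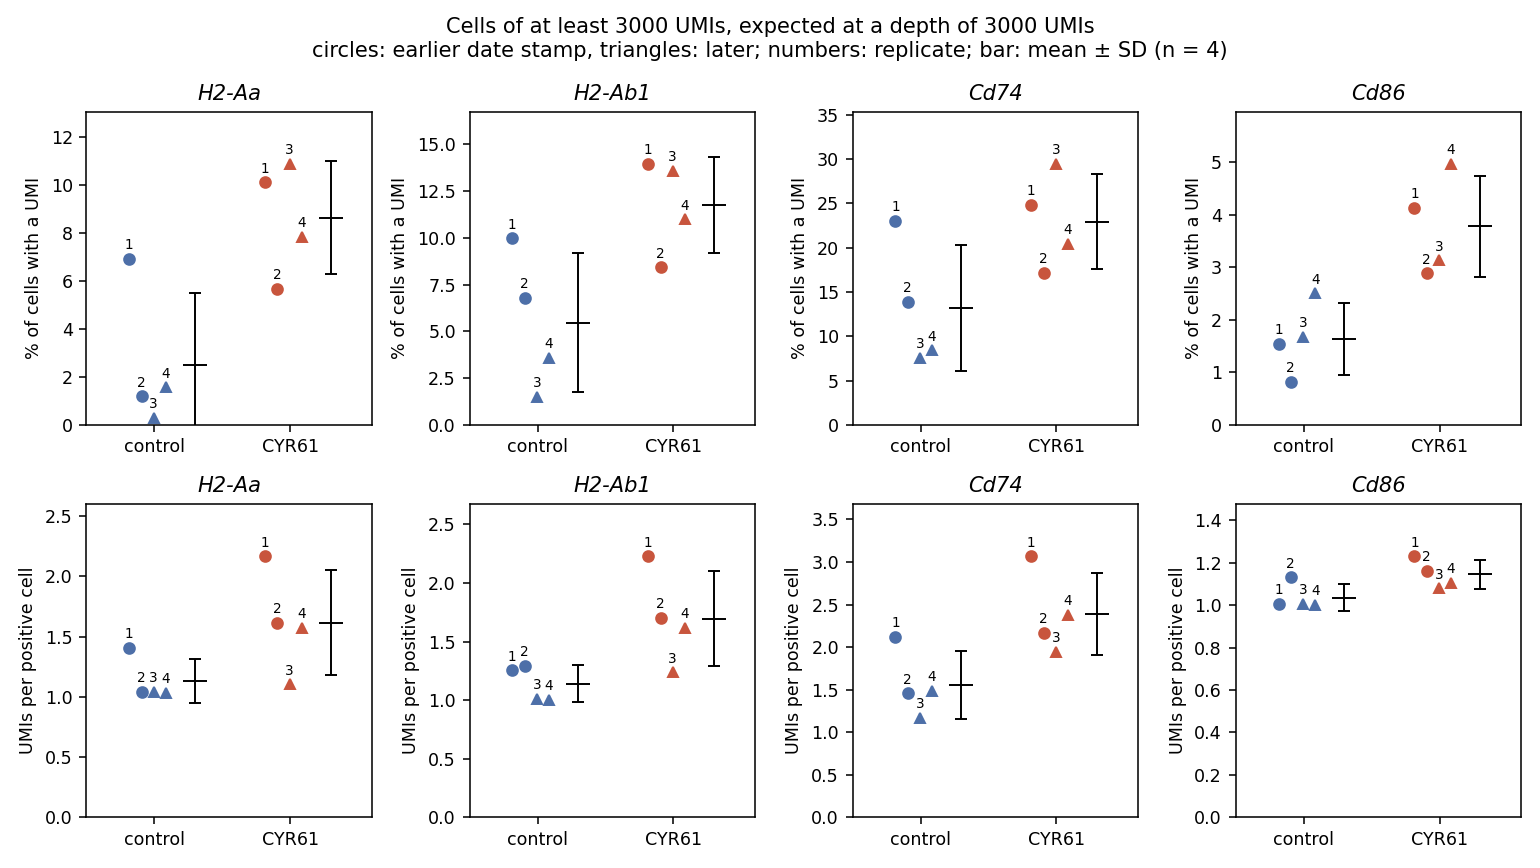
Cells of at least 3000 UMIs, with values expected at that depth: share of cells with a UMI (upper row, %) and UMIs per positive cell (lower row) of H2-Aa, H2-Ab1, Cd74 and Cd86 by library, with mean ± SD bars. The Cd86 shares of the CYR61 libraries, from 2.89 to 4.97%, lie above all controls, and the amounts of Cd74 overlap at 1 CYR61 library.

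In 5 of 8 libraries most chain UMIs sat in few cells. H2-Aa, H2-Ab1 and H2-Eb1 together summed to 80.9, 45.9, 16.6 and 22.9 CPM in control replicates 1 to 4 and to 197, 100.3, 111 and 86.9 CPM in CYR61 replicates 1 to 4. Cells with at least 3 of these UMIs numbered 21, 4, 1 and 0 in controls and 68, 70, 8 and 22 with CYR61. They were 1.98, 1.27, 0.340 and 0% of control cells (the 0 allows up to 0.769%) and 3.45, 1.94, 1.60 and 2.07% of CYR61 cells, untested and at the libraries' own depths. CYR61 replicates 2 and 3 lay below control replicate 1, and the 95% Wilson intervals of control replicate 1 (1.30 to 3.02%) and CYR61 replicate 2 (1.54 to 2.45%) overlapped widely.

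Those cells carried 74.5, 61.6, 46.1 and 66.8% of the chain UMIs in CYR61 replicates 1 to 4, and 58.3, 66.7, 28.6 and 0% in control replicates 1 to 4. The fullest single cell held 193 chain UMIs in CYR61 replicate 1 and 31 in control replicate 1. At least 10 chain UMIs were found in 67 of 7139 CYR61 cells (0.939%) and 6 of 2057 control cells (0.292%), of which 5 were in control replicate 1. The CYR61 cells numbered 32, 25, 2 and 8 in replicates 1 to 4 (1.62, 0.694, 0.401 and 0.751%). CYR61 replicate 3 thus lay below control replicate 1 (0.473%), at the libraries' own depths. Both layers were lower in the controls on average: cells below 3 chain UMIs gave 33.8, 15.3, 11.9 and 22.9 CPM in control replicates 1 to 4 and 50.3, 38.5, 60.1 and 28.9 CPM in CYR61 replicates 1 to 4. In that layer CYR61 replicate 4 lay below control replicate 1.

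**Figure D4:**
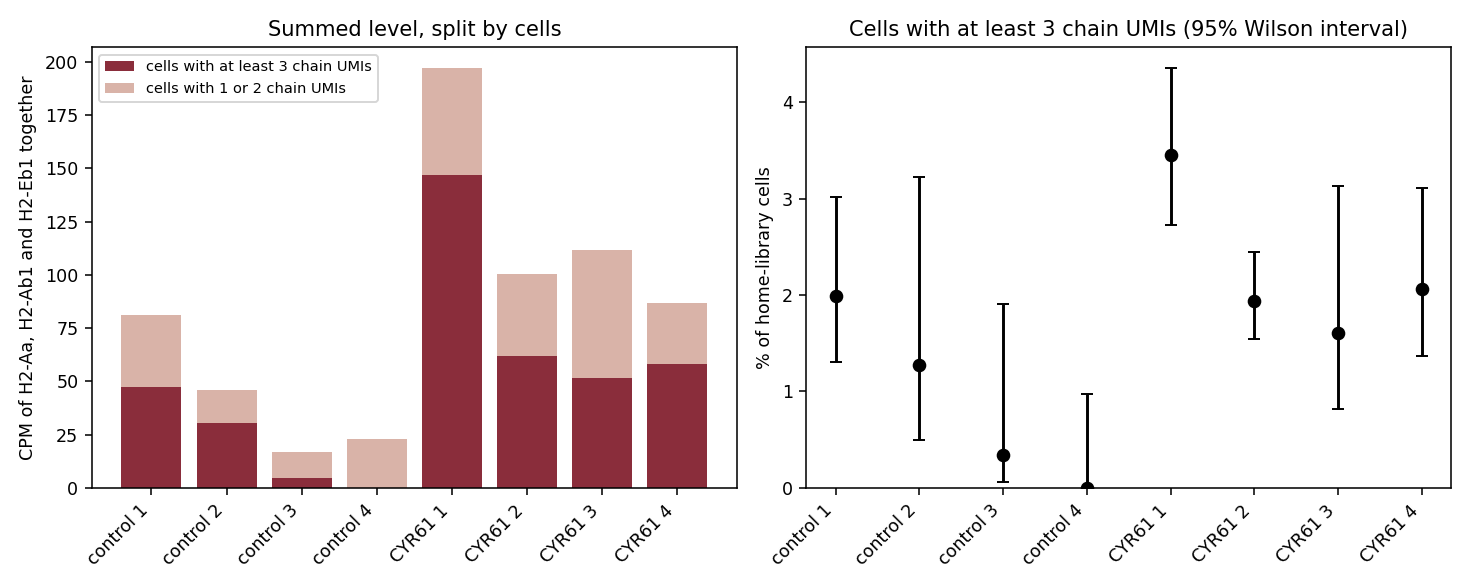
Left, summed CPM of H2-Aa, H2-Ab1 and H2-Eb1 per library, split into cells with at least 3 and with 1 or 2 of their UMIs; right, the share of home-library cells with at least 3 (%), with 95% Wilson intervals. CYR61 replicate 1 is highest in both panels, and the interval of control replicate 1 overlaps those of all CYR61 libraries.

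The members were found together in these cells. Over all libraries, 194 cells held at least 3 chain UMIs, and Cd74 was present in 92.8% of them, against 13.8% of the 7910 cells with no chain UMI. H2-DMb1 was present in 45.4% and H2-DMa in 39.7% of the 194 cells, Ciita in 21.6% and Cd86 in 14.9%. In the 73 cells with at least 10 chain UMIs, Cd74 was in all and Ciita in 34.2%. Depth differed, with medians of 10435.5 UMIs in the 194 cells and 1071 in cells with no chain UMI, so the shares cannot be compared as they stand. In CPM over the pooled cells, Cd74 was at 976 in the former and 64.4 in the latter, Ciita at 30.3 and 1.01, H2-DMb1 at 67.8 and 22.1, H2-DMa at 52.5 and 23.3 and Cd86 at 22.6 and 11.2. These cells were chosen by chain UMIs, so the values are a description.

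The other members were also counted in cells without any chain UMI. In them Cd74 was at 80.2, 38.6, 16.1 and 44.1 CPM in control replicates 1 to 4 and at 87.1, 54.6, 97.8 and 68.7 CPM in CYR61 replicates 1 to 4, with overlap (44.7 ± 26.6 against 77.1 ± 19.2 CPM, SD, n = 4 each; exact two-sided permutation p = 0.114). Cd86 was at 4.92, 1.33, 5.84 and 4.64 CPM in control replicates 1 to 4 of these cells and at 12.4, 11.1, 3.10 and 23.2 CPM in CYR61 replicates 1 to 4. Its mean difference there was of the size seen in all cells (4.18 ± 1.97 against 12.5 ± 8.25 CPM, exact p = 0.114, n = 4 each). H2-DMb1 was level at 24.7 and 24.5 CPM.

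RNA free in the wells adds single UMIs to cells that do not make a gene. In 65 neutrophil-like cells, a type that largely lacks class II, H2-Aa was seen in 7.69%, H2-Ab1 in 16.9% and Cd74 in 26.2%, at a median of 4391 UMIs. In the other 9131 cells the shares were 5.99, 9.16 and 18.1%, at a median of 1177 UMIs. The neutrophil-like cells were deeper, so these shares cannot be compared as they stand, and whether single UMIs are free RNA was not tested. At equal depth, with shares expected at 500 UMIs, the neutrophil-like cells were at 0.273% for H2-Aa, 1.74% for H2-Ab1 and 3.01% for Cd74, and the other cells at 1.72, 2.49 and 6.08%. The former rest on 5, 11 and 17 cells with a UMI, so this gap is a description. In CPM, the chain genes together were at 62.3 in neutrophil-like cells and 115 in the others, and Ciita was not seen in the neutrophil-like cells, which allows a share of up to 4.62%. Barcodes with under 100 genes held 11 chain UMIs in all controls (25.2 CPM) and 18 with CYR61 (55.9 CPM). By library these were 6, 4, 0 and 1 UMIs in control replicates 1 to 4. The barcodes of CYR61 replicates 1 to 4 held 4, 0, 13 and 1, too few to compare. The part of free RNA in the differences of share and level was not tested.

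Across the 8 libraries H2-Aa and H2-Ab1 ran closely together (Pearson r = 0.96 of log2 CPM), as did H2-Aa and H2-Eb1 (0.90) and H2-Ab1 and H2-Eb1 (0.80). Against the mean of the chain genes, r was 0.90 for Cd74, 0.59 for Cd86, 0.54 for H2-DMb1 and 0.24 for H2-DMa. These r are a description over 8 libraries that differ in treatment and depth. Of 6530 other genes with a mean of at least 20 CPM, the most alike were Klhl20 (r = 0.95), Slc15a3 (0.95), Mcoln2 (0.95), Clec4a1 (0.94) and Golga3 (0.94). Slc15a3 encodes an endolysosomal peptide and histidine transporter, Mcoln2 an endolysosomal cation channel and Clec4a1 a C-type lectin. Clec4a1 rose with CYR61 (log2 fold change 1.0, SE 0.21, adjusted p = 0.0352 in edgeR), and the other 4 did not pass.

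In cells with at least 3 chain UMIs, the genes with the largest median fold over the other cells of the same library were Dcstamp (9.52-fold), Tmem176b (4.67), Emp2 (3.21), Rmrp (3.13) and H2-M2 (3.11). They were followed by Ccr2 (3.06), Polq (3.06), Fat3 (2.91), Grk3 (2.53) and Rnd3 (2.35). DC-STAMP is a membrane protein known from cell fusion in osteoclasts and giant cells, and CCR2 is the chemokine receptor of inflammatory monocytes. Control replicate 4 held no such cell and gave no fold, and a library without the gene in its other cells gave none either, so the median of Dcstamp rests on 6 libraries and that of Tmem176b on 4. The fold was above 1 in 4 and 3 of these. Of the 10 genes, 9 had a fold of 0 in at least 1 library, and only Grk3 was above 1 in all 7. Dcstamp rested on 58 UMIs in the class II positive cells and Ccr2 on 431.

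Around the members, 57 genes of the class II pathway were listed, of which 53 were in the tables and 42 were tested. Of these 42, 2 rose and 0 fell in edgeR, where 1.16% of all tested genes were called. The median log2 fold change of the 42 was 0.16. Among 14 tested transcription genes none of the RFX and NF-Y subunits passed, with Rfxank at -0.38 (SE 0.53) and Nfya at -0.26 (SE 0.20), and Irf1, an interferon-responsive factor, was at 0.55 (SE 0.32, adjusted p = 0.915). Of 8 tested costimulators and checkpoint ligands, Lgals9, which encodes galectin-9, rose from 97.6 ± 12.6 to 252 ± 44.4 CPM (SD, n = 4 each; log2 fold change 1.40, SE 0.19, adjusted p = 0.00176 in edgeR). The other ligand of CD28, Cd80, was at -0.49 (SE 0.48), Vsir at -0.34 (SE 0.19) and Cd40 at -0.12 (SE 0.48), and none of these passed. Cd274 (0.69, SE 0.52) did not pass either.

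Of 10 tested genes for proteolysis and loading, edgeR called 0 (3 at an unadjusted p under 0.05) and all 10 estimates were positive, where 47.3% of all tested genes had a positive estimate. The cathepsin gene Ctsh was at 380 ± 59.1 and 563 ± 36.1 CPM without overlap (SD, n = 4 each; log2 fold change 0.59, adjusted p = 0.227 in edgeR), and Sppl2a, the protease that clears the invariant chain stub, was at 0.59 (adjusted p = 0.700). Ctss, the main protease of the invariant chain, was at 0.38 (SE 0.19, adjusted p = 0.850). Of 6 turnover genes edgeR called 0, with 1 at an unadjusted p under 0.05. Marchf1, the ubiquitin ligase that sends class II and CD86 to degradation, had the smallest p, at 149 ± 20.8 and 230.1 ± 24.5 CPM (SD, n = 4 each; log2 fold change 0.66, SE 0.16, adjusted p = 0.101 in edgeR). Like Ctsh, Marchf1 was higher with CYR61 without overlap, beside 2.87% of all tested genes. Cd83 (-0.38, SE 0.49) and Ap1m1 (-0.19, SE 0.27) had estimates below 0. In the interferon-gamma list edgeR called 0 of 4 (1 at an unadjusted p under 0.05), with Jak2 at 0.50 (adjusted p = 0.636), Ifngr2 at 0.31, Ifngr1 at -0.08 and Jak1 at -0.02, and Ifng itself was too low to test. Over all 42, edgeR had 7 genes at an unadjusted p under 0.05, all higher with CYR61, beside 3.45% of all tested genes. DESeq2 called 4 genes, Ctsh and Marchf1 among them, where it called 1.76% of all genes. With a block for X-linked and Y-linked RNA edgeR called 6, among them Ctsh, Sppl2a, Marchf1 and Cd274. The share over all genes was not worked out for that block, so these 6 have no background beside them.

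**Figure D5:**
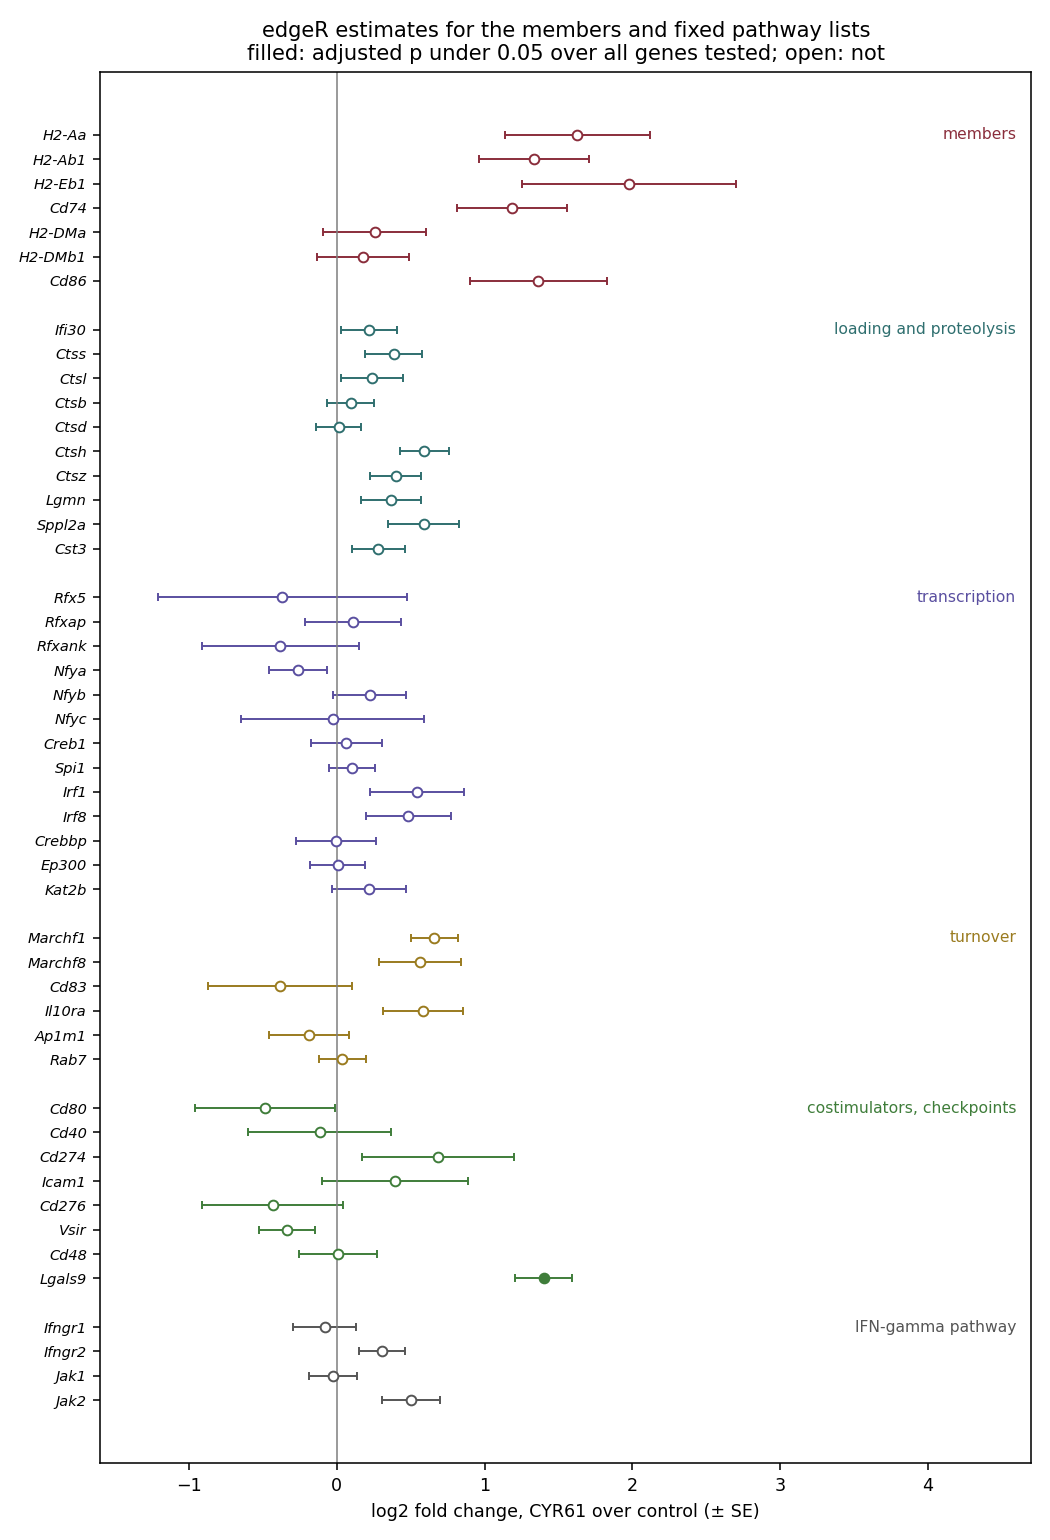
Log2 fold change of CYR61 over control (horizontal axis, ± SE, edgeR, n = 4 each) for the 7 tested members and the tested pathway genes that are reported; filled points passed the adjusted p over all genes. Lgals9 is filled, at 1.40, and all members are open.

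Markers of other antigen-presenting cells were examined beside the members. The B cell list, with 6 of 10 genes in the tables, summed to 8.97 to 39.2 CPM in controls and 3.48 to 6.95 CPM with CYR61, and its difference lay in Ighm, which fell (adjusted p = 0.0196 in edgeR), with Cd79a and Ms4a1 at 0 in all libraries but CYR61 replicate 1. Markers of conventional dendritic cells, 10 of 12 in the tables, summed to 166 to 256 CPM in controls and 81.8 to 152 CPM with CYR61, most of it Itgax, and Flt3, Zbtb46 and Xcr1 were at or near 0. Not all of that list ran lower: Flt3, Dpp4 and Itgae were at 0 in all controls and at up to 0.758, 1.26 and 0.870 CPM with CYR61. They rest on 11, 14 and 5 UMIs over all libraries. A 0 allows up to 0.873 CPM in control replicate 1 and up to 3.56 CPM in control replicate 3, so these genes say little. In the 194 cells with at least 3 chain UMIs, pooled over libraries, Flt3 was at 2.19 CPM (6 UMIs) against 0.164 in the remaining cells, Dpp4 at 2.55 (7 UMIs) against 0.230, Clec10a at 19.0 against 10.0 and Itgax at 160.1 against 125 CPM. Ighm was at 17.5 CPM (48 UMIs) in these cells against 7.13 in the remaining ones. The plasmacytoid list was higher with CYR61, at 466 to 891 against 166 to 284 CPM, through Bst2 and Tcf4, while Siglech was at most 1.79 CPM, and the part of these lists in the result was not tested beyond the values that follow. T and NK cell markers were under 3 CPM in every library.

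In a variant, cells with at least 3 UMIs of neutrophil, B, T and NK, plasmacytoid, mast, megakaryocyte or erythroid markers were left out. Bst2 and Tcf4 were not counted for this. Markers of conventional dendritic cells and monocytes were not used, so any such cells could stay in. Leaving out these 317 cells removed 476 of 3777 chain UMIs. In the remaining cells the log2 fold change was 1.25 (SE 0.53) for H2-Aa, 1.09 (SE 0.39) for H2-Ab1, 0.97 (SE 0.43) for Cd74 and 1.18 (SE 0.46) for Cd86, with 0 of 7 members called beside 1.18% of genes. H2-Aa overlapped in CPM there, at 33.1, 24.3 and 34.1 CPM in CYR61 replicates 2 to 4 against 38.2 CPM in control replicate 1. H2-Ab1 did so through CYR61 replicate 3, at 41.7 CPM against 45.7 CPM in control replicate 1, where 3.56% of genes were higher without overlap. The shares of both at 500 UMIs did not overlap in these cells, beside 3.28% of genes.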

How the data were processed

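Raw UMI counts per gene and barcode were deposited by the authors for 8 libraries, each with 5000 barcodes; the values are whole numbers. Reads were mapped to mm10, per the submitters' processing notes, while the aligner and the counter were not given in the sources used here. Cells were barcodes with at least 300 genes and at most 20% mitochondrial UMIs, kept in the library of their date stamp where they had most UMIs. No doublets were removed and no doublet caller was run. Counts were summed per library and tested with edgeR 4.0.16 in R 4.3.3 (TMM, filterByExpr, quasi-likelihood test, Benjamini-Hochberg adjustment over all genes, threshold 0.05, all 8 libraries, protein as the sole term), with DESeq2 1.42.0 as an alternative. Shares of cells used cells thinned to 500 UMIs, with exact two-sided permutation tests over 70 assignments. Neutrophil-like cells held at least 10 UMIs of Ngp, Ltf, Camp and Lcn2 together. The edgeR test was run on simulated counts with known changes, and the permutation test on made-up values with a known answer. DESeq2 was not checked in this way, and the outcomes are not given here. The text names all members, in each pathway list the genes that passed and otherwise up to 2 with the smallest p in each direction, the 5 genes most like the chain genes and the 10 with the largest fold in class II positive cells. Irf1, Ctss, Cd40, Ifng and the cell type markers were named outside that rule. Of the pathway genes, 1 that counts among those tested is not reported here. The members and lists were chosen with earlier results of these data known. Alternatives covered normalization, filters, dates, the home-library rule, thinning and single libraries. The cells of at least 3000 UMIs, the expected shares and the separate Y-linked and Xist sets were added after seeing the data.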

Additional observations from a re-analysis of the deposited data

Results flagged for a closer look

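In 32 groups of 4 libraries examined, 4 values stood far from the others of their group, and chance alone marks about 1 group in 20 of continuous values. In CYR61 replicate 1, H2-Aa was at 69.0 CPM, where the next CYR61 library was at 37.4 CPM. The share of cells with Cd74 at 500 UMIs was 10.2% in that same library, with the next at 5.87%. In control replicate 1, 0.703% of cells had a UMI of H2-Eb1 at 500 UMIs and 0.100% had one of Ciita, where the other 3 controls were at 0 for both, which allows shares of up to 0.813 to 1.06%. These are 7 and 1 of 996 cells, and where 3 libraries are at 0 any single UMI in the fourth stands apart, so both say little.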

How the results depend on the processing

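The edgeR log2 fold changes of H2-Aa, H2-Ab1, H2-Eb1, Cd74, H2-DMa and Cd86 stayed positive in every setting that could fit them, 18 to 24 each, and H2-DMb1 reached -0.36 in the earlier date stamp. Of 7 members, 1 was called by DESeq2 (H2-Ab1, log2 fold change 1.36), with a date term (H2-Ab1, 1.43, adjusted p = 0.0465) and with the replicate block (H2-Aa, 1.95, adjusted p = 0.0316, where 1.07% of genes were called). With no filter 4 were called (H2-Aa 1.74, H2-Ab1 1.46, H2-Eb1 2.09, Cd74 1.30). Whether the replicate numbers pair the libraries is not known. Same-numbered libraries correlated at -0.198, 0.324, -0.0874 and 0.314. Of the controls, only replicate 4 correlated best with the CYR61 library of its own number. With single libraries left out, 0 to 1 members were called, and the range was 1.36 to 2.59 for H2-Aa. The pathway calls were 2 in the main setting (1.16% of all genes), 4 by DESeq2 (1.76%) and 1 in the later date stamp (0.920%). They were 6 with a block for X-linked and Y-linked RNA and 0 in all kept cells. For these last settings the share over all genes was not worked out. The difference in share of H2-Aa, in percentage points, missed the exact test at 1000 UMIs (1.72), in strict cells (1.32) and at 3000 UMIs (6.14). It ranged from 1.15 to 1.66 without single libraries, with an exact p of 0.0571 without CYR61 replicate 1 or 3. That of H2-Ab1 missed the exact test without thinning (4.97) and at 3000 UMIs (6.27). Its range without single libraries was 1.28 to 2.07, with an exact p of 0.0571 without control replicate 2, 3 or 4. In the runs with an exact p of 0.0571 the groups still did not overlap, but another assignment gave a difference at least as large in size. Cd74 passed over all draws (4.27) and without control replicate 1 (4.57), with a range of 2.46 to 4.57. Ciita passed at 1000 UMIs (0.319) and Cd86 at 3000 UMIs (2.15). The share of H2-DMb1 turned at 1000 UMIs (-0.504), at 3000 UMIs (-0.126) and in all kept cells (-0.0186), and ranged from -0.0715 to 0.376 without single libraries. UMIs per positive cell of Cd74, level at 500 UMIs (-0.00789), were higher with CYR61 at 1000 UMIs (0.379, exact p = 0.0286), without thinning (0.525) and at 3000 UMIs (0.833), range -0.0668 to 0.0999. They turned at 3000 UMIs for H2-DMa (0.00046, range -0.0661 to 0.0109). For H2-DMb1 every positive cell held 1 UMI at 500 UMIs, so that amount had no direction there, and at 1000 UMIs, without thinning and at 3000 UMIs the difference was -0.152, -0.115 and -0.0514. The causes were not tested. Within replicate numbers the smallest exact p is 0.125, and within date stamps 0.0556, so neither can pass. Low depth limits Ciita, Cd86 and H2-Eb1 most.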
